A study of Drosophila melanogaster with 39 samples.

Results

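The genes examined here encode the canonical, nuclear-encoded subunits of the mitochondrial respiratory chain of Drosophila melanogaster, followed in testes and in sorted spermatocytes of mutants of the testis PAF1 complex. They were taken by gene symbol: every symbol that starts with ND-, COX, UQCR- or ATPsyn, without those that end in L, L1 or L2, the endings carried by testis paralogs. This left 57 of the 79 symbols with these 4 starts, out of 13659 genes measured. Of the 57 genes, 33 belong to complex I (ND-), 6 to complex III (UQCR-), 7 to complex IV (COX) and 11 to complex V (ATPsyn). The other symbols were 21 testis paralogs and ND-MNLL, a canonical complex I gene whose symbol happens to end in L. ND-MNLL was left out by the rule, and it passed the test in none of the comparisons. Genes of the mitochondrial genome were not analysed here.

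As background, complex I takes electrons from NADH, complex III passes them from ubiquinol to cytochrome c, and complex IV hands them to oxygen. Each of these complexes pumps protons across the inner mitochondrial membrane, and complex V, the ATP synthase, makes ATP as the protons flow back through its rotating ring and central stalk. Drosophila male germ cells express paralogs of many of these subunits, and spermatid mitochondria later fuse into the nebenkern and elongate along the sperm tail. The PAF1 complex travels with elongating RNA polymerase II. Cdc73L, Ctr9L, Leo1L and Paf1L are testis paralogs of its subunits.

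RNA of whole testes was sequenced from flies 1 to 3 days old in 7 groups of 3 libraries. The controls were the stocks w1118 and w1118 iso. The mutants were transheterozygotes of Cdc73L (TH1), Ctr9L (TH2), Leo1L (TH1), Leo1L from the inverted cross, and Paf1L (TH2). In a second experiment, spermatocytes were sorted by fluorescence, and the labels give their purity as 85% or more. The sorted control is labelled w1118, with no mention of the iso stock. Every sorted group, the control included, carried Cdc73L tagged with LAP(GFP) at its own locus, and the mutants were homozygous for Leo1L FS1 or Paf1L FS1. The 9 sorted columns are 3 replicates of each group, and each column joins a library depleted of ribosomal RNA with one that was not, so 39 samples stand behind 30 columns. The p-values given here set differences between groups against the spread between replicate columns within groups, estimated separately in each experiment. The spread between the libraries joined in a sorted column was not measured.

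Values are the authors' normalized signal per gene, which has no absolute unit. Depth was approximately 8.68 to 12.8 M reads per bulk library and 7.98 to 20.9 M per sorted column (M, 1e+06), and the smallest signal taken as detected, that of 3 reads, was 0.224 to 0.377 and 0.145 to 0.382. The mutated genes went with the labels where they could be matched. CG10887, the Leo1L gene, was at 53.7 to 70.0 in the 6 bulk control libraries and at 15.5 to 18.2 in the 6 Leo1L mutant libraries. CG12674, the Paf1L gene, was at 47.6 to 59.7 in the controls and 2.84 to 6.67 in Paf1L mutants, and CG9899, the Ctr9L gene, at 107 to 127 and 9.91 to 10.7. In sorted cells CG10887 was at 17.0 to 23.1 in controls and 6.18 to 8.20 in Leo1L mutants, and CG12674 at 17.0 to 27.7 and 0.740 to 1.28 in Paf1L mutants. Of the spermatocyte markers, 11 of 12 were in the tables, and their summed signal was 2643 to 2846 in sorted control columns and 1389 to 1799 in bulk controls. That sum was led by bol, a regulator of meiotic entry, at 2107 to 2274 in sorted controls. The median log2 ratio of sorted to bulk control levels over 11 spermatocyte markers was -1.26, with aly at 10.9 to 13.3 in sorted and 33.9 to 42.3 in bulk controls. The cyst cell marker tj was at 0.9 or less in each sorted control column, while eya was at 35.2 to 45.4, upd1 at 26.2 to 30.2 and zfh1 at 11.5 to 13.1. Over 7 hub and cyst cell markers the log2 ratio ran from -4.92 to 0.61. The 14 muscle markers had a summed signal of 699 to 741 in sorted and 1500 to 1752 in bulk controls, and Act87E, at 477 to 533, and sls, at 176 to 214, made up most of the former. The median log2 ratio over 13 muscle markers with signal in both was -5.06, and 11 were at -2 or below.

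All 57 respiratory chain genes had a mean signal of at least 1 in both tables and were tested in each. Not divided by length, and so not a ranking of transcript levels, their signal in bulk controls ran from 19.0 for COX7C, a small subunit of complex IV, to 624 ± 48.4 (SD, n = 6) for UQCR-C1, a core protein of complex III. The median gene of the 57 stood at the 79.5th percentile of the undivided signal of all genes in bulk controls and at the 76.7th in sorted controls. Together they made up 0.557% to 0.653% of the signal of each bulk control library and 0.557% to 0.665% over all 21 libraries. In sorted cells they made up 0.406% to 0.440% in controls, 0.432% to 0.463% in Leo1L and 0.440% to 0.475% in Paf1L mutants. These ranges touch or overlap in both tables.

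Levels of different genes were ranked per kilobase of annotated exon, which assumes that the deposited signal had not already been divided by gene length. On that scale the highest level in bulk controls was 382 per kilobase for UQCR-C1, ahead of 340 for ATPsynB, a subunit of the peripheral stalk of the ATP synthase. COX5A, a nuclear-encoded subunit of cytochrome c oxidase, was the highest of complex IV at 190.5, and ND-39, a complex I accessory subunit and counterpart of mammalian NDUFA9, was at 184. Subunits that share a complex were far from equal: the ATP synthase ran from 15.4 per kilobase for ATPsyndelta, part of the central stalk, to 340 for ATPsynB. The annotated exons of ATPsyndelta span 3817 bases over all its transcripts, so a shorter dominant transcript would give a higher level per kilobase. Replicates were close for most genes. The standard deviation of log2 signal within a group was 0.048 to 0.269 in bulk with a median of 0.106, and 0.047 to 0.783 in sorted cells with a median of 0.135.

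These transcripts made up a smaller part of the signal in control spermatocytes than in control testes, and the ratios were uneven over the complexes. Their median ratio of sorted to bulk control level nevertheless stood above that of all genes tested. The experiments were normalized separately, so the ratio of sorted to bulk control level is a description with no test. The median log2 ratio was -0.41 over the 57 genes and -0.54 over 9329 genes tested in both tables with signal in both controls. With w1118 as the only bulk control it was -0.35 over the 57 genes. By complex it was -0.31 for complex I, -0.49 for complex III, -1.66 for complex IV and -1.59 for complex V. Other lists spanned a wide range on the same scale, from 0.25 for 25 testis paralogs to -0.96 for 72 mitochondrial and -2.62 for 92 cytosolic ribosomal protein genes.

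Low ratios were found in every complex. ATPsynbeta, the catalytic subunit of the F1 head, was at 261 ± 40.7 (SD, n = 6) in bulk controls and 19.0 ± 7.71 (n = 3) in sorted controls, a log2 ratio of -3.78. COX7C went from 19.0 to 1.58 (-3.59), and UQCR-14, the counterpart of mammalian UQCRB in complex III, from 20.6 to 2.12 (-3.28). ND-51, the flavin-binding subunit of complex I, went from 51.9 to 8.29 (-2.65). Each of these 4 genes has a testis paralog in the tables. The ring subunit gene ATPsynC, whose symbol has no L form in the tables, was also low in spermatocytes, at 293 and 35.2 (-3.06). At the other end ND-B8, the counterpart of mammalian NDUFA2, went from 20.3 to 32.2, a log2 ratio of 0.67, and ATPsynE, a membrane subunit of complex V, from 164 to 206, a ratio of 0.33.

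**Figure D1:**
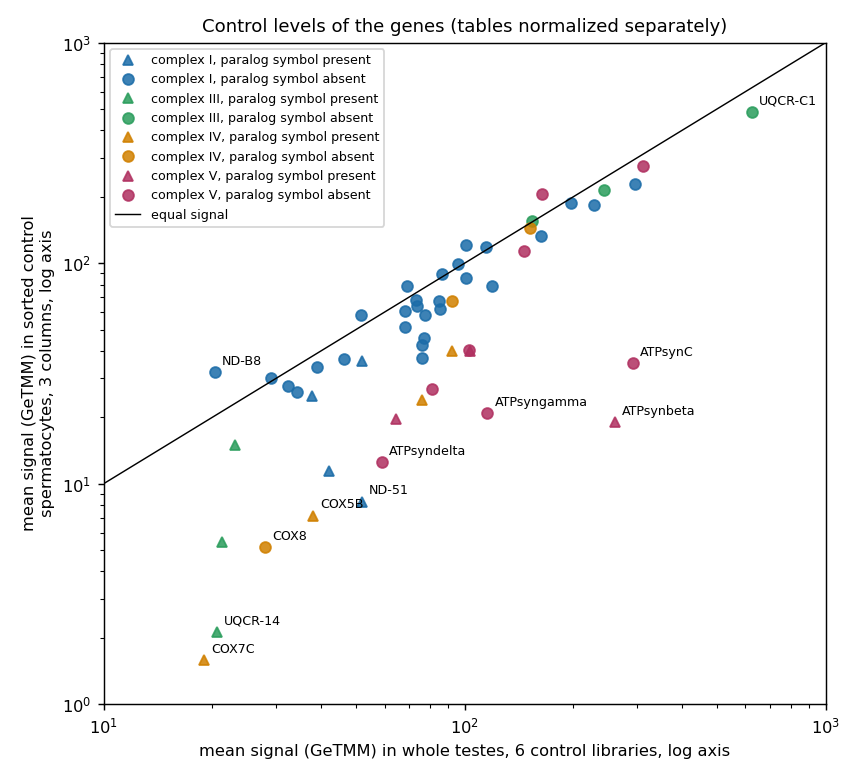
Mean control signal of 56 of the genes in bulk testis (x axis, 6 libraries, log scale) and in sorted spermatocytes (y axis, 3 columns, log scale), with the genes that have a testis paralog symbol in the tables drawn as triangles. Of the 14 triangles, 11 lie at a log2 ratio of -1 or below, and of the 42 other genes 7 do. Among 9329 genes tested in both tables with signal in both controls, not drawn here, 3523 do.

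Possession of a testis paralog went with a low level in spermatocytes. Of the 57 genes, 15 have a counterpart whose symbol adds L, L1 or L2, giving 17 pairs. The median log2 ratio of sorted to bulk control level was -1.87 over these 15 genes, and 12 of them were at -1 or below. Over the 42 genes without such a symbol the median was -0.30 and 7 were at -1 or below. Of the 9329 genes tested in both tables with signal in both controls, 3523 were at -1 or below. Within complex I the medians were -1.87 for 5 genes with and -0.22 for 28 genes without a paralog. Within complex V they were closer, at -1.71 for 3 and -1.47 for 8 genes. The genes without a paralog symbol that were nevertheless low were mostly ATP synthase genes, 5 of 7, with ATPsynC, ATPsyngamma at -2.47 and ATPsyndelta at -2.23 among them, beside COX8 at -2.44 and ND-B14.7 at -1.04.

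In most pairs the canonical gene was the minor partner. The share of the canonical gene is its signal per kilobase as a percentage of the summed signal per kilobase of the pair. In bulk controls the paralog was higher per kilobase in 15 of 17 pairs, and in sorted controls in 16 of 17. Without division by length the counts were 14 and 16. Among the smallest shares were those of COX7C, at 5.22% of its pair with COX7CL in bulk and 0.380% in sorted controls, and of UQCR-11, the counterpart of the mammalian hinge protein, at 7.60% and 1.78%. COX4 held 9.47% and 2.55%, and COX5B 12.9% and 2.07%. Annotated exons span 1613 bases in UQCR-11 and 443 in UQCR-11L, 853 and 410 in the COX7C pair and 1231 and 730 in the COX4 pair. The shares in these pairs thus rest in part on the division by length. Undivided, UQCR-11 was at 21.3 and UQCR-11L at 71.6 in bulk controls. ND-24, a flavoprotein-arm subunit and counterpart of mammalian NDUFV2, held 24.6% and 15.7%. ATPsynbeta held the larger part of its pair in bulk testis, 62.5%, and 31.8% in spermatocytes. COX7A was at 98.9% and 96.1% against COX7AL2, the pair in which the canonical gene led in both tables, and at 22.9% and 11.6% against COX7AL.

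Every sorted control column gave a smaller canonical share than every bulk control library in 16 of the 17 pairs. The other pair was UQCR-6.4, the smallest subunit of complex III, with 27.3% to 37.3% in bulk and 16.4% to 28.5% in sorted controls. Reads of near-identical paralogs cannot be told apart from these values, and hub and cyst cell markers were also lower in sorted than in bulk controls, with a median log2 ratio of -1.87 over 7 genes. In whole testes, fewer cells of a type and less RNA per cell cannot be told apart.

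**Figure D2:**
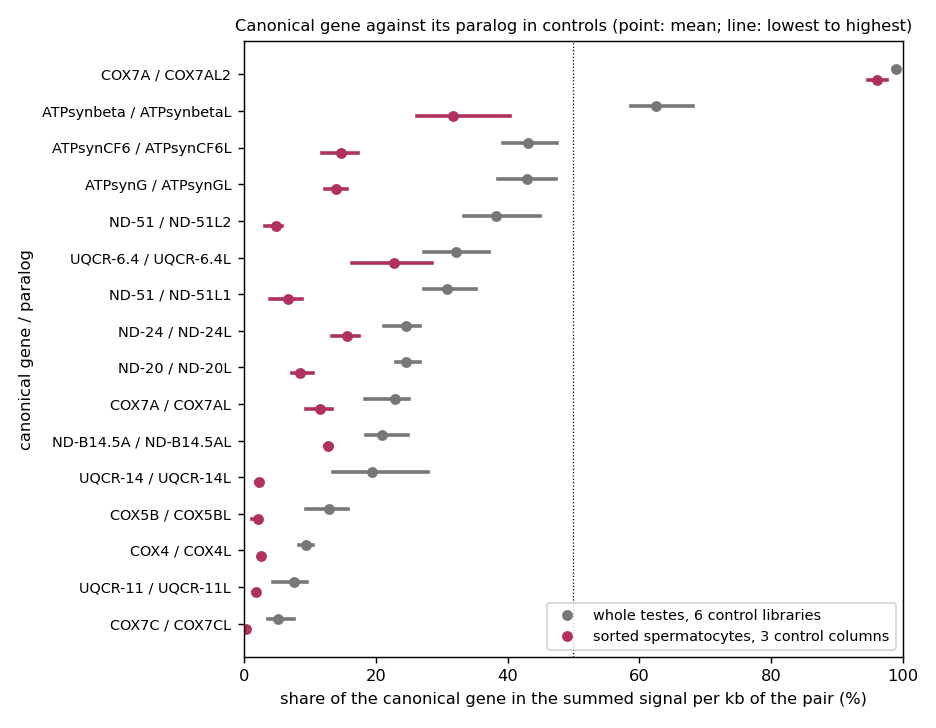
Share of the canonical gene in the summed signal per kilobase of each of 16 pairs with a testis paralog (x axis, percent), for bulk controls (6 libraries) and sorted controls (3 columns); points are means and lines run from the lowest to the highest library. The ranges of bulk and sorted controls overlap in 1 pair, UQCR-6.4.

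In each comparison of a testis PAF1 mutant with controls, most canonical respiratory chain genes missed the threshold for a call. The genes that were called moved by less than 2 fold, apart from ATPsyndelta and, in sorted Paf1L mutants, COX5B. Genes called in no comparison had log2 fold changes of up to 0.27 in size in bulk and 0.92 in sorted cells. A gene passed a comparison when its Benjamini-Hochberg adjusted p in limma, adjusted over all genes tested, was under 0.05 at any fold change. In bulk testes 3 of the 57 genes rose and 4 fell in Cdc73L mutants, 12.3% of them, where 23.0% of all genes tested passed. In Ctr9L mutants 3 rose and 2 fell (8.77%, against 22.8% of all genes). In Leo1L mutants 7 rose and 9 fell (28.1%, against 30.4%), and in the inverted cross 9 rose and 3 fell (21.1%, against 31.7%). In Paf1L mutants 12 rose and 3 fell (26.3%, against 28.9%). In sorted spermatocytes 8 rose and 1 fell in Leo1L mutants (15.8%, against 16.5%), and 8 rose and 3 fell in Paf1L mutants (19.3%, against 25.4%). Each share was below that of all genes tested, and in Leo1L and sorted Leo1L close to it. Among all genes tested, higher calls made up 10.4% in Cdc73L, 12.0% in Ctr9L, 15.4% in Leo1L, 15.8% in the inverted cross, 13.8% in Paf1L, 9.53% in sorted Leo1L and 13.0% in sorted Paf1L, and lower calls 12.6%, 10.8%, 15.1%, 15.9%, 15.0%, 6.95% and 12.3%. The count in Cdc73L was 3 without Cdc73L replicate 2 and 3 without its replicate 3, that in Ctr9L was 3 without Ctr9L replicate 3, and that in sorted Paf1L was 6 without control replicate 3 and 6 without Paf1L replicate 1. The 5 bulk comparisons share their controls, as do both sorted comparisons.

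The median log2 fold change of the 57 genes was 0.01 in Cdc73L, 0.03 in Ctr9L, 0.03 in Leo1L, 0.05 in the inverted cross and 0.06 in Paf1L mutants, beside 0.02, -0.00, 0.03, 0.00 and 0.00 for all genes tested. In sorted cells it was 0.10 in Leo1L and 0.13 in Paf1L mutants, beside 0.02 and 0.05. Over the 7 mutant comparisons 31 genes passed in none and 26 in at least 1, which is 45.6% of them against 61.5% of the 9333 genes tested in both tables. Of the 26, 16 rose, 10 fell and 0 did both. Complex I supplied most of them, with 63.6% of its genes passing at least once, close to the share of all genes: 12 of its 33 genes never passed, against 5 of 6 in complex III, 5 of 7 in complex IV and 9 of 11 in complex V. ATPsyndelta and ND-18 rose in all 7 comparisons, and UQCR-C1 fell in the 5 bulk comparisons and in sorted Leo1L mutants. With a required change of 2 fold or more either way, 0, 0, 1, 1 and 1 genes passed in the bulk comparisons (2.17%, 0.906%, 2.23%, 2.54% and 2.38% of all genes tested), and 1 and 2 in the comparisons of sorted cells (4.05% and 7.80%). These were ATPsyndelta in each case and COX5B in sorted Paf1L mutants.

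**Figure D3:**
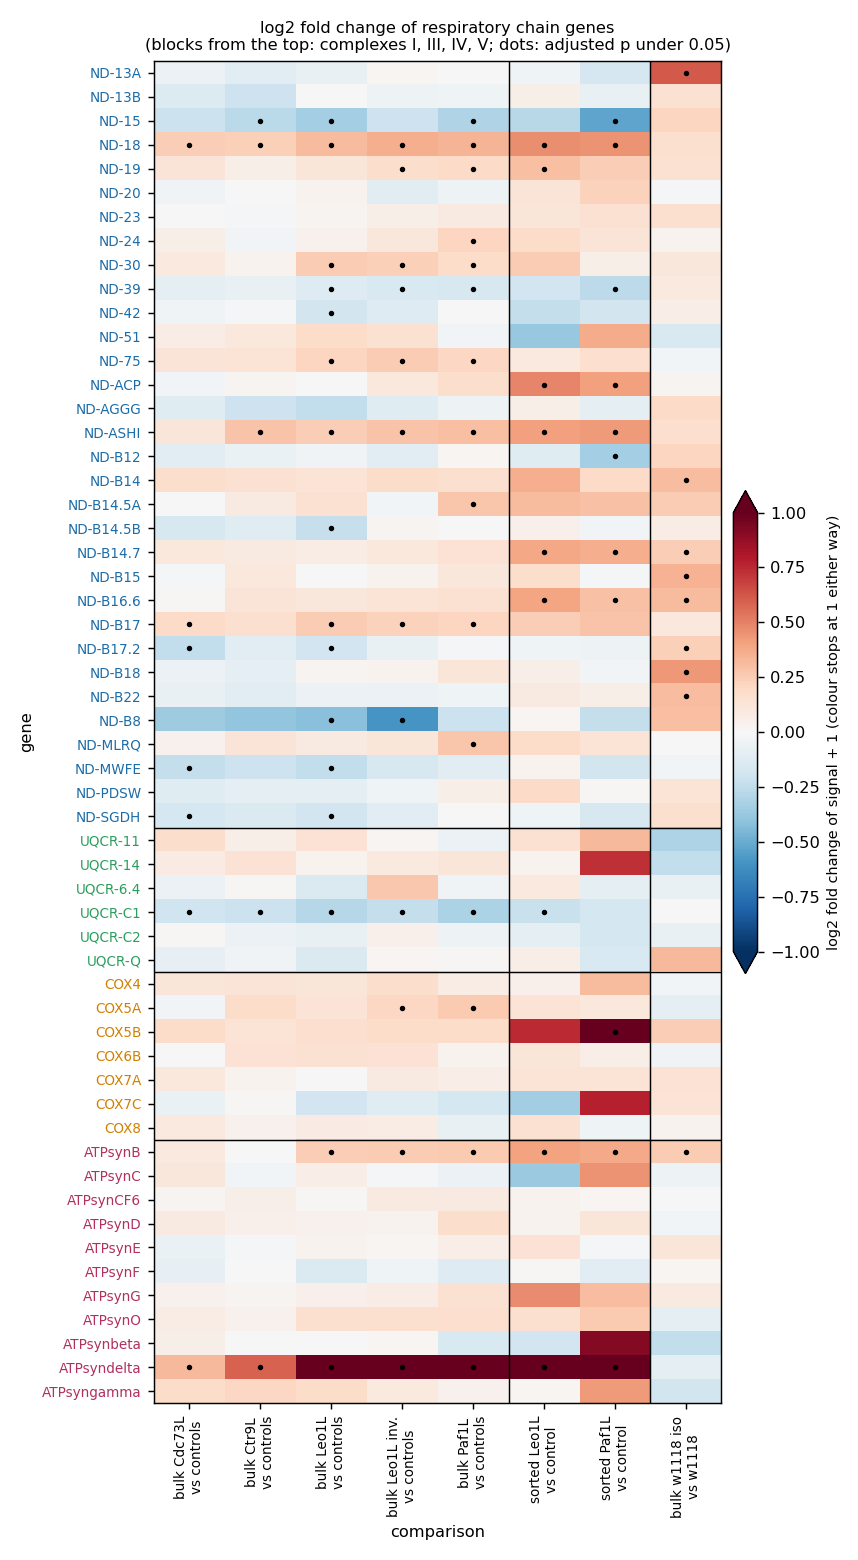
Heat map of the log2 fold change of 56 of the genes (rows, in blocks for complexes I, III, IV and V) in 8 comparisons (columns), with a dot where the adjusted p was under 0.05; the colour scale stops at 1. Most cells are pale, and ATPsyndelta and ND-18 have a dot in all 7 mutant columns.

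ATPsyndelta encodes a subunit of the central stalk that couples the rotating ring to the F1 head (FBgn0028342, chromosome X, 10212970 to 10217393, plus strand, BDGP6.54). In bulk testes it was at 70.4, 54.7 and 57.9 in w1118 and 64.5, 53.3 and 52.7 in w1118 iso libraries. It was at 72.5, 71.9 and 76.3 in Cdc73L, 83.5, 89.3 and 92.7 in Ctr9L, 171, 156 and 156 in Leo1L, 145, 163 and 149 in the inverted cross, and 180.1, 184 and 150.4 in Paf1L mutants. Every one of the 15 mutant libraries lay above all 6 control libraries, and the Leo1L and Paf1L libraries lay above those of Cdc73L and Ctr9L. In sorted spermatocytes the columns read 11.1, 13.95 and 12.6 in controls, 82.9, 69.5 and 84.6 in Leo1L and 105, 106 and 95.8 in Paf1L mutants, with no overlap between any of the 3 groups.

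The log2 fold changes of ATPsyndelta on the log2(signal + 1) scale were 1.44 in Leo1L, 1.36 in the inverted cross and 1.53 in Paf1L mutants (SE 0.08 each; limma, adjusted p = 9.3e-10, 1.8e-09 and 4.1e-10), or 2.71, 2.57 and 2.88 fold. In Ctr9L mutants the change was 0.59 ± 0.08 (SE; adjusted p = 9.1e-05) and in Cdc73L mutants 0.32 ± 0.08 (adjusted p = 0.0112). The Cdc73L call was lost without Cdc73L replicate 3 (0.30, adjusted p = 0.0538), when only the groups compared were fitted (adjusted p = 0.0559) and with the accessory gland score as a covariate (adjusted p = 0.0594). In sorted cells the changes were 2.56 ± 0.12 in Leo1L and 2.93 ± 0.12 in Paf1L mutants (adjusted p = 9.6e-09 and 2.6e-09), or 5.90 and 7.64 fold. The difference between the sorted mutants, 0.37 ± 0.12, missed the threshold (adjusted p = 0.251). The calls in the other 6 comparisons held under every alternative tried, with log2 fold changes of 0.54 to 0.64 in Ctr9L, 1.38 to 1.51 in Leo1L, 1.30 to 1.43 in the inverted cross, 1.47 to 1.62 in Paf1L, 2.26 to 2.65 in sorted Leo1L and 2.61 to 3.02 in sorted Paf1L.

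**Figure D4:**
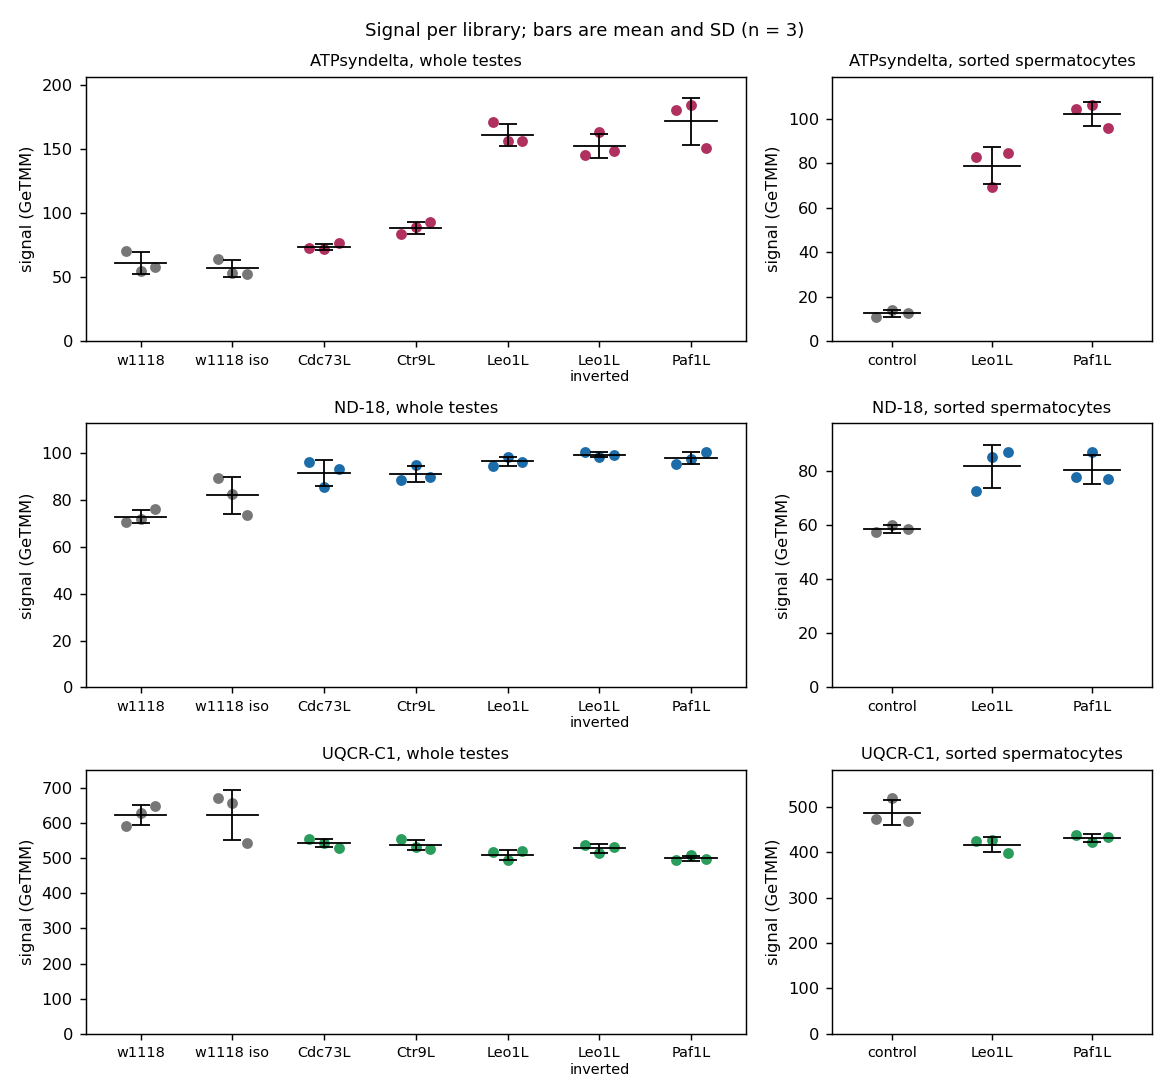
Signal per library of ATPsyndelta, ND-18 and UQCR-C1 in the 7 bulk groups and the 3 sorted groups (points are libraries or columns, bars the mean and SD, n = 3). ATPsyndelta rises from 11.1, its lowest value in sorted controls, to 106, its highest in sorted Paf1L mutants, while ND-18 and UQCR-C1 move by far less.

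The genes around ATPsyndelta differed from each other. Ypel lies 595 bases upstream on the opposite strand; it fell in bulk Leo1L and Paf1L mutants by 0.35 and 0.34 on the log2 scale (adjusted p = 0.0169 and 0.0224) and in sorted Paf1L mutants by 0.69 (adjusted p = 0.0162). Ypel was at 23.1, 14.6 and 18.4 in sorted controls, 14.8, 13.2 and 12.3 in Leo1L and 10.6, 11.2 and 11.2 in Paf1L mutants. CG34408 lies 2716 bases downstream on the same strand and passed in none of the 5 bulk mutants, with log2 fold changes from -0.22 to 0.17. In sorted cells CG34408 rose, from 2.56, 4.39 and 4.54 in controls to 13.9, 17.5 and 12.8 in Leo1L and 51.3, 39.7 and 41.4 in Paf1L mutants. CG43902, 17632 bases upstream on the same strand, rose in both sorted mutants by 1.02 and 1.23 (adjusted p = 0.0179 and 0.00432), from 2.21, 1.52 and 2.37 in controls to 4.83, 5.08 and 5.41 in Leo1L and 4.34, 6.78 and 7.57 in Paf1L. CG43902 also rose in all 5 bulk mutants, by 1.35 to 1.64, and was higher by 1.42 in w1118 iso than in w1118. Hk, 15953 bases downstream on the opposite strand, rose in sorted Paf1L by 1.56 (adjusted p = 0.0054), with 1.02 in sorted Leo1L (adjusted p = 0.0646), and passed in no bulk mutant. CG2962, which overlaps ATPsyndelta on the opposite strand, had a mean of 0.240 in bulk and 0.0164 in sorted controls. The strand setting of the counting is not given in the sources used here, so reads of overlapping genes cannot be told apart.

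Of the 10 other ATP synthase genes, 9 passed in no mutant comparison. ATPsynB was at 292, 284 and 278 in w1118 and 333, 347 and 338 in w1118 iso, and at 386, 355 and 365 in Leo1L, 376, 356 and 379 in the inverted cross and 362, 377 and 378 in Paf1L mutants. In Cdc73L (312, 342 and 344) and Ctr9L mutants (309, 309 and 315) all libraries lay below the highest control, at 347. Those of Leo1L, the inverted cross and Paf1L lay above all 6 controls, and the control stocks did not overlap each other. The log2 fold changes were 0.25, 0.25 and 0.26 (SE 0.04; adjusted p = 0.00039, 0.00032 and 0.00025). Against the w1118 iso controls alone they were 0.12, 0.12 and 0.13 (adjusted p = 0.0992, 0.0860 and 0.0772), and none passed. In sorted cells ATPsynB rose as well, from 257, 311 and 262 in controls to 344, 369 and 381 in Leo1L and 355, 353 and 370.2 in Paf1L mutants, by 0.40 ± 0.08 and 0.38 ± 0.08 (adjusted p = 0.00369 and 0.00353).

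The catalytic subunit gene ATPsynbeta varied too widely between sorted columns for a call. It read 17.5, 12.3 and 27.4 in controls, 28.9, 8.41 and 15.7 in Leo1L and 38.9, 63.4 and 17.3 in Paf1L mutants, with a log2 fold change of 0.92 in Paf1L (adjusted p = 0.153). Without Paf1L replicate 3 it was 1.41 (adjusted p = 0.0231). In the same columns ATPsynC read 27.995, 31.4 and 46.3, then 35.7, 18.7 and 27.3, then 56.2, 56.3 and 33.3. COX7C read 1.96, 0.738 and 2.05, then 2.10, 0.592 and 0.539, then 3.26, 7.77 and 1.11. In these 3 genes Paf1L replicate 2 was the highest of the 9 columns, and Paf1L replicate 3 was lower than both other Paf1L columns. Over all 57 genes, Paf1L replicate 2 was the highest column in 19. The matching count over all genes tested was not taken. The score of 7 hub and cyst cell markers, their mean log2(signal + 1), was 2.69, 2.88 and 2.35 in the Paf1L columns, 2.21, 2.32 and 2.32 in Leo1L and 2.76, 2.51 and 2.44 in controls. Its part in these values was not tested.

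Complex I genes that rose did so by 0.36 or less on the log2 scale in bulk testes. ND-18, an accessory subunit and counterpart of mammalian NDUFS4 (chromosome X, 19492421 to 19493337, plus strand), was at 70.7, 71.8 and 76.3 in w1118 and 89.3, 82.8 and 73.8 in w1118 iso. It was at 96.1, 85.6 and 93.3 in Cdc73L, 88.6, 95.1 and 89.8 in Ctr9L, 94.7, 98.5 and 96.2 in Leo1L, 101, 98.5 and 99.2 in the inverted cross, and 95.3, 97.6 and 101 in Paf1L mutants. All mutant libraries but 2 lay above every control library, the exceptions being Cdc73L replicate 2 and Ctr9L replicate 1. The log2 fold changes were 0.24, 0.24, 0.32, 0.36 and 0.34 (SE 0.06; adjusted p = 0.00527, 0.00568, 0.0003, 9.1e-05 and 0.00018). With w1118 iso as the only control the change was 0.16 in Cdc73L and 0.16 in Ctr9L (adjusted p = 0.0949 and 0.109). In sorted cells ND-18 went from 57.2, 59.9 and 58.3 to 72.6, 84.9 and 87.0 in Leo1L and 77.6, 86.7 and 76.8 in Paf1L mutants. These groups did not overlap the control, with changes of 0.47 ± 0.10 and 0.45 ± 0.10 (adjusted p = 0.00583 and 0.00519).

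ND-ASHI, a membrane-arm accessory subunit and counterpart of mammalian NDUFB8, rose in 4 bulk mutants and in both sorted mutants. It was at 60.1 to 76.5 in the 6 bulk control libraries, at 83.3, 83.6 and 79.4 in Leo1L and at 78.6, 84.0 and 92.8 in Paf1L mutants, above every control. The log2 fold changes were 0.28 in Ctr9L, 0.25 in Leo1L, 0.28 in the inverted cross and 0.30 in Paf1L (adjusted p = 0.0035, 0.00522, 0.00216 and 0.00148), and 0.12 in Cdc73L (adjusted p = 0.168). Against w1118 iso alone the Leo1L change was 0.17 (adjusted p = 0.0584). In sorted cells ND-ASHI went from 84.5, 75.8 and 74.8 to 101, 106 and 106 in Leo1L and 105, 112 and 100.3 in Paf1L, again with no overlap, by 0.41 ± 0.09 and 0.43 ± 0.09 (adjusted p = 0.00586 and 0.00314).

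ND-75, the largest iron-sulphur subunit of the peripheral arm and counterpart of mammalian NDUFS1, rose in 3 bulk mutants. It was at 213 to 250.4 in controls, 278, 254 and 259.6 in Leo1L, 269, 265 and 279 in the inverted cross, and 259, 268 and 262 in Paf1L mutants, above every control. The changes were 0.21, 0.25 and 0.21 (SE 0.05; adjusted p = 0.00441, 0.00127 and 0.00586). ND-30, another core subunit and counterpart of mammalian NDUFS3, rose in the same mutants by 0.25, 0.24 and 0.18 (adjusted p = 0.00495, 0.00679 and 0.0347). None of these 3 ND-30 changes passed against w1118 iso alone (0.19, 0.18 and 0.13; adjusted p = 0.0608, 0.0807 and 0.255). Its call in the inverted cross was lost without inverted cross replicate 2 (adjusted p = 0.0533), and that in Paf1L without w1118 replicates 2 or 3 or Paf1L replicates 1 or 3 (0.0674, 0.0730, 0.218 and 0.0521). The membrane-arm gene ND-B17, counterpart of mammalian NDUFB6, rose in Cdc73L, Leo1L, inverted cross and Paf1L mutants by 0.19, 0.25, 0.23 and 0.21 (SE 0.06; adjusted p = 0.0297, 0.00357, 0.00734 and 0.0127). Of these only the Leo1L call held with each library left out. That in Cdc73L was lost without w1118 replicates 1 or 2 or Cdc73L replicates 1 or 2 (0.0523, 0.0682, 0.0732 and 0.130), that in the inverted cross without its replicate 2 (0.0533) and that in Paf1L without its replicate 2 (0.0848). These 3 calls were also lost against w1118 iso alone (0.142, 0.052 and 0.0855), when only the groups compared were fitted (0.135, 0.0703 and 0.0848) and with the muscle score as a covariate (0.0747, 0.277 and 0.146).

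Another 3 complex I genes rose in both sorted mutants and passed in no bulk mutant against both stocks. Against w1118 alone each passed in bulk Paf1L, ND-ACP by 0.19, ND-B16.6 by 0.32 and ND-B14.7 by 0.27 (adjusted p = 0.0476, 0.00626 and 0.00936), and the difference between sorted cells and whole testes was not tested. ND-ACP, the mitochondrial acyl carrier protein, was at 60.3, 73.5 and 68.4 in sorted controls, 92.3, 90.2 and 101 in Leo1L and 89.9, 94.7 and 84.4 in Paf1L mutants, with both mutants above every control column. Its changes were 0.48 ± 0.10 and 0.41 ± 0.10 (adjusted p = 0.00465 and 0.00891). ND-B16.6, counterpart of mammalian NDUFA13, was at 63.0, 62.6 and 56.99, then 81.2, 78.2 and 81.7, then 74.3, 76.1 and 74.1. Its changes were 0.40 ± 0.09 and 0.29 ± 0.09 (adjusted p = 0.00765 and 0.0272), and the latter was lost without control replicate 3 or any 1 of the Paf1L columns (adjusted p = 0.0590 to 0.0968). ND-B14.7, counterpart of mammalian NDUFA11, was at 36.1, 36.6 and 38.2, then 43.8, 49.5 and 52.8, then 44.9, 53.5 and 45.5, by 0.38 ± 0.12 and 0.36 ± 0.12 (adjusted p = 0.0389 and 0.0369). Neither mutant group of ND-B14.7 overlapped the control, yet its Paf1L call was lost without any 1 column of either group (adjusted p = 0.0522 to 0.128). Its Leo1L call was lost without any 1 control column or Leo1L replicates 2 or 3 (0.0731 to 0.163).

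Among complex I genes that fell, ND-15, counterpart of mammalian NDUFS5, was at 121, 102 and 95.8 in w1118 and 121, 129 and 118 in w1118 iso. It was at 97.1, 101 and 85.3 in Ctr9L, 96.5, 88.2 and 84.7 in Leo1L and 92.2, 92.2 and 93.1 in Paf1L mutants, overlapping w1118 in Ctr9L and Leo1L but below w1118 iso. The changes were -0.27, -0.34 and -0.30 (adjusted p = 0.0198, 0.00302 and 0.00882), and against w1118 alone -0.16, -0.23 and -0.19 (adjusted p = 0.231, 0.0732 and 0.140). The Ctr9L call was also lost without w1118 iso replicate 2 (0.0554) or Ctr9L replicate 3 (0.140). In sorted Paf1L mutants ND-15 read 66.8, 93.0 and 85.9 against 100.2, 130.3 and 124 in controls, a change of -0.53 ± 0.16 (adjusted p = 0.0254) that was lost without control replicates 2 or 3 or Paf1L replicate 1 (0.0940, 0.0836 and 0.109).

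ND-39 fell in 3 bulk mutants and in sorted Paf1L mutants by 0.13 to 0.26 on the log2 scale. It was at 277 to 323 in bulk controls and at 281, 260.1 and 269.8 in Leo1L, 254.5, 276 and 269 in the inverted cross and 265, 267 and 264 in Paf1L mutants. Its adjusted p-values of 0.0485, 0.0237, 0.0220 and 0.0489 lay close to the threshold. The call was lost in 13 of 22 alternatives in Leo1L, 8 of 22 in the inverted cross, 8 of 22 in Paf1L and 11 of 14 in sorted Paf1L. Among them were the fits without any 1 library of Leo1L (adjusted p = 0.0530 to 0.211), of bulk Paf1L (0.0596 to 0.0708) or of sorted Paf1L (0.0656 to 0.152). The same held without w1118 iso replicates 1 or 2 in Leo1L (up to 0.101), w1118 iso replicate 2 or inverted cross replicates 1 or 3 in the inverted cross (0.0531, 0.120 and 0.0545), and control replicates 2 or 3 in sorted Paf1L (0.182 and 0.0745).

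In complex III 1 gene of 6 changed. UQCR-C1, one of the core proteins that face the matrix (chromosome 3R, 14890231 to 14892387, plus strand), had the highest level per kilobase of all 57 genes in bulk controls. It was at 592, 629.6 and 649 in w1118 and 672, 658 and 543 in w1118 iso, and at 554, 543 and 530.1 in Cdc73L, 554, 531 and 526 in Ctr9L, 517, 494 and 519.5 in Leo1L, 538, 514 and 532 in the inverted cross and 494, 508 and 499 in Paf1L mutants. All Leo1L, inverted cross and Paf1L libraries lay below every control, while those of Cdc73L and Ctr9L reached past the lowest, w1118 iso replicate 3. The changes were -0.20, -0.21, -0.29, -0.24 and -0.31 (SE 0.06; adjusted p = 0.0206, 0.0131, 0.00099, 0.00431 and 0.00047). The Cdc73L call was lost without Cdc73L replicates 2 or 3 (0.0666 and 0.0832) and the Ctr9L call without Ctr9L replicates 2 or 3 (0.0550 and 0.0610).

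In sorted cells UQCR-C1 read 474, 519.6 and 469 in controls, 425, 426 and 397 in Leo1L and 439, 422 and 434 in Paf1L mutants, with every mutant column below every control. The changes were -0.23 ± 0.06 in Leo1L (adjusted p = 0.0274) and -0.17 ± 0.06 in Paf1L (adjusted p = 0.0627). The Leo1L call was lost without control replicate 2 (0.0876) or Leo1L replicates 1 or 3 (0.0504 and 0.110). UQCR-C2, its partner core protein, passed in none of the mutant comparisons, with log2 fold changes from -0.07 to 0.05 in bulk and -0.17 to -0.09 in sorted cells.

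In complex IV 2 genes of 7 changed. COX5B, whose paralog COX5BL leads in testis, was at 3.77, 9.19 and 8.52 in sorted controls, 12.5, 11.3 and 12.2 in Leo1L and 14.1, 19.0 and 12.8 in Paf1L mutants. All mutant columns lay above all control columns. The change was 1.06 ± 0.27 in Paf1L (adjusted p = 0.0121), or 2.08 fold, and 0.75 ± 0.27 in Leo1L (adjusted p = 0.0796). In bulk mutants COX5B changed by 0.14 to 0.18 and passed in none. COX5A rose in the inverted cross and Paf1L by 0.21 and 0.26 (adjusted p = 0.0280 and 0.00819). Its call in the inverted cross was lost without w1118 iso replicate 2 (adjusted p = 0.0625) or inverted cross replicates 1 or 3 (0.182 and 0.0577). Against w1118 alone neither COX5A change passed (0.16 and 0.22; adjusted p = 0.135 and 0.0516). With the muscle score as a covariate the changes were 0.02 and 0.13 (adjusted p = 0.939 and 0.280). The muscle score, the mean log2(signal + 1) of 14 markers, was 5.63 to 6.02 in controls and 4.76 to 5.87 in mutant libraries.

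The 15 genes with a testis paralog contributed few calls, beside 22.8% to 31.7% of all genes tested in bulk mutants and 16.5% and 25.4% in sorted mutants. By limma 0 of them passed in Cdc73L, Ctr9L, Leo1L or inverted cross mutants or in sorted Leo1L mutants (0, 0, 0, 1 and 3 at an unadjusted p under 0.05), 2 rose in bulk Paf1L (ND-24 and ND-B14.5A) and 1, COX5B, in sorted Paf1L. The ND-24 call was lost without Paf1L replicate 1 (0.18, adjusted p = 0.120). It was also lost against w1118 iso alone (adjusted p = 0.0574) and when only the groups compared were fitted (0.117). With the muscle score as a covariate its adjusted p was 0.137. The ND-B14.5A call was lost in 8 of 22 alternatives. Among them were the fits without w1118 replicates 2 or 3 or any 1 Paf1L library (adjusted p = 0.0914 to 0.130). With the muscle score as a covariate COX4 rose in all 5 bulk mutants, by 0.22 to 0.48 on the log2 scale (adjusted p = 0.0024 to 0.0162), and ATPsynG passed in Paf1L (0.31, adjusted p = 0.0238) and ND-51 and ND-B14.5A in Leo1L (0.25 and 0.26, adjusted p = 0.0424 and 0.0332). Of 25 testis paralogs tested, 16 fell in Cdc73L, 16 in Ctr9L, 18 in Leo1L, 16 in the inverted cross and 14 in Paf1L, and in sorted cells 3 in Leo1L and 11 in Paf1L mutants. While 1 or 2 rose in each of these comparisons, 7 were higher and 0 lower in w1118 iso than in w1118. ND-51 held 32.2% of its pair with ND-51L1 in w1118 and 29.4% in w1118 iso, but 42.3% in Cdc73L, 51.1% in Ctr9L, 57.6% in Leo1L, 55.8% in the inverted cross and 50.5% in Paf1L mutants. Every mutant library, from 37.2% up, lay above every control library, of which the highest was 35.3%. In sorted cells the share was 6.62% ± 2.47 (SD, n = 3) in controls, 16.9% ± 8.91 in Leo1L and 27.8% ± 6.39 in Paf1L, with the lowest Leo1L column at 8.86% and the highest control at 8.80%. ND-51 itself passed in no comparison without a covariate and with both stocks as controls and all libraries. ND-51L1 fell in all 5 bulk mutants, by 0.63, 1.11, 1.41, 1.34 and 1.21 on the log2 scale, and in both sorted mutants by 1.88 and 2.06.

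Mutants were tested against each other in 2 comparisons, and others between mutants were not tested. Of the 57 genes, 0 passed between the inverted cross and the Leo1L cross by limma, 2 at an unadjusted p under 0.05, and 0.0366% of all genes tested passed. Between sorted Paf1L and Leo1L mutants 0 passed, 8 at an unadjusted p under 0.05, and 0.442% of all genes passed.

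The control stocks differed from each other in complex I. Between w1118 iso and w1118, 9 of the 57 genes passed, all higher in w1118 iso, which is 15.8% of them against 8.69% of all genes tested (5.16% for higher calls alone). Of the 9 genes, 8 belong to complex I and the other is ATPsynB. ND-13A, counterpart of mammalian NDUFS6, was at 104, 114 and 172 in w1118 and 179, 203 and 203 in w1118 iso, a log2 difference of 0.62 ± 0.12 (SE; adjusted p = 0.00456). The mutant libraries of ND-13A, at 139 to 171, lay below every w1118 iso library and within the range of w1118. Against both stocks ND-13A passed in no mutant, but against w1118 iso alone it was lower in all 5, by 0.37 in Cdc73L, 0.41 in Ctr9L, 0.38 in Leo1L, 0.29 in the inverted cross and 0.30 in Paf1L on the log2 scale (adjusted p = 0.00163, 0.000593, 0.000501, 0.00495 and 0.00401).

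ND-B18, counterpart of mammalian NDUFB7, was at 25.4, 23.5 and 24.6 in w1118 and 29.8, 34.5 and 36.6 in w1118 iso, a difference of 0.44 ± 0.11 (adjusted p = 0.0169). ND-B15, counterpart of mammalian NDUFB4, was at 41.2, 38.8 and 41.4 against 57.6, 54.9 and 44.1, a difference of 0.35 (adjusted p = 0.0232). In neither gene did the stocks overlap. The ND-B18 call was lost without w1118 replicate 2 or w1118 iso replicates 2 or 3 (adjusted p = 0.0595 to 0.0639), and the ND-B15 call without w1118 replicates 1 or 2 or w1118 iso replicates 1 or 2 (0.0524 to 0.0951). The count of 9 fell to 5 without w1118 replicate 1, to 3 without w1118 replicate 2 and to 2 without w1118 iso replicate 2, and it was 0 when only these 6 libraries were fitted.

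**Figure D5:**
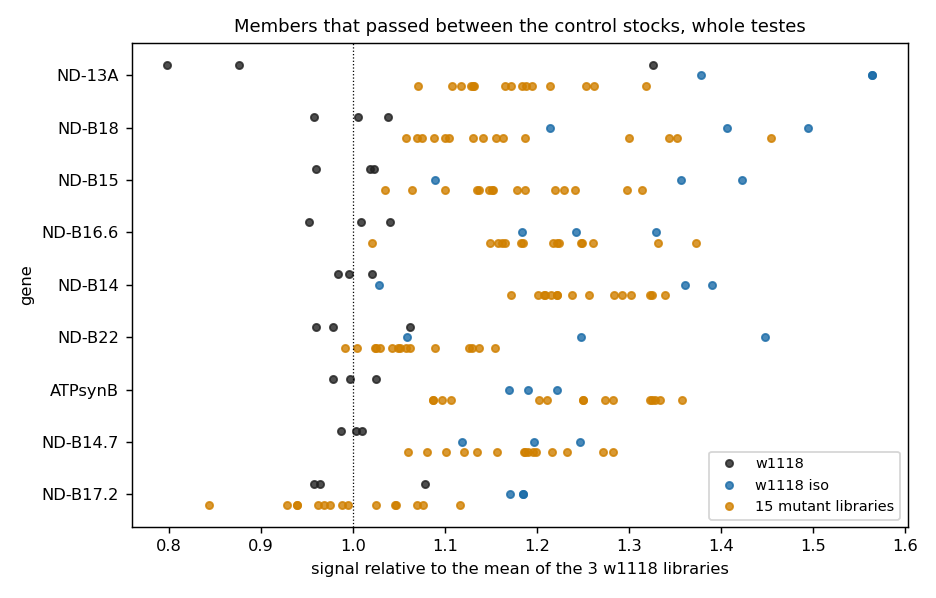
Signal of the 9 genes that passed between the control stocks, relative to the mean of the 3 w1118 libraries, for the w1118 libraries, the w1118 iso libraries and the 15 mutant libraries (points are libraries). Genes in which every w1118 iso library stands above every w1118 library include ATPsynB, ND-13A, ND-B18, ND-B16.6 and ND-B15. In ND-13A the mutant libraries lie below every w1118 iso library and within the range of w1118.

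Genes of the same pathways that the symbol rule does not reach were followed as lists. Their counts stand beside 22.8% to 31.7% of all genes tested that passed in bulk mutants. In sorted Leo1L and Paf1L mutants 16.5% and 25.4% of all genes tested passed. Of 12 other electron transport genes, which include complex II, cytochrome c and its reductase partners, 1 rose and 3 fell in Cdc73L, 0 passed by limma in Ctr9L (3 at an unadjusted p under 0.05), 2 rose and 1 fell in Leo1L, 1 rose and 3 fell in the inverted cross and 1 rose in Paf1L. In sorted cells 0 passed in Leo1L (1 at an unadjusted p under 0.05) and 2 rose in Paf1L. Cyt-c-p, the somatic cytochrome c gene, read 0.383, 1.66 and 1.41 in sorted controls, 6.92, 2.33 and 4.09 in Leo1L and 4.86, 14.9 and 2.28 in Paf1L mutants, a change of 1.70 in Paf1L (adjusted p = 0.0253). Without Paf1L replicate 2, the highest column, it was 1.08 (adjusted p = 0.0837). It was also lost without control replicates 1 or 3 (0.0978 and 0.0505). Paf1L replicate 2 was the highest of the 9 columns in 5 of these 12 genes and in 19 of the 57 respiratory chain genes. The same held in 7 of 15 tricarboxylic acid cycle genes and in 6 of 12 glycolysis genes. No such count was taken over all genes tested, so whether these lists differ from other genes was not tested. Paf1L replicate 2 had 9787 genes at a signal of 1 or more, against 8969 to 9628 in the other sorted columns. In that column Gapdh1 was at 20.9, Mdh2 at 19.0 and Ldh at 15.5. Each was at 5.83 or less in every other column. Without that column 0 of the 12 electron transport genes passed in sorted Paf1L, and likewise 0 passed without control replicate 1 or 3, 1 without Paf1L replicate 1 and 4 without Paf1L replicate 3. RFeSP, the Rieske iron-sulphur protein of complex III, was higher by 0.27 in Cdc73L, 0.33 in Leo1L, 0.40 in the inverted cross and 0.30 in Paf1L (adjusted p = 0.0173, 0.00246, 0.00061 and 0.00568), and by 0.29 in w1118 iso against w1118 (adjusted p = 0.0434).

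The lists that follow also stand beside 22.8% to 31.7% of all genes tested in bulk mutants and 8.69% between the stocks. For sorted Leo1L and Paf1L mutants the shares were 16.5% and 25.4%. Of 11 genes of respiratory chain assembly and protein import that were tested, 1 rose in Cdc73L, 1 in Ctr9L, 2 in Leo1L, 2 in the inverted cross and 3 in Paf1L, and 0, 0, 1, 0 and 1 fell. In sorted cells 1 rose and 1 fell in each mutant. In sorted Paf1L 0 rose without any 1 control column or Paf1L replicates 1 or 2. Tom40, the pore of the outer membrane import complex, rose in all 7 mutant comparisons, by 0.29, 0.30, 0.30, 0.40 and 0.33 in bulk testes and by 0.27 and 0.22 in spermatocytes. Its call in sorted Paf1L was therefore lost in each of those left-out fits. Of 15 tricarboxylic acid cycle genes, 1, 0, 1, 1 and 0 rose and 1, 1, 1, 1 and 4 fell in the bulk mutants in the same order, and in sorted cells 2 rose and 0 fell in Leo1L mutants, and 4 rose and 1 fell in Paf1L mutants (3 and 0 without Paf1L replicates 1 or 2 or control replicate 3, 8 and 1 without Paf1L replicate 3). Pdha, the alpha subunit of pyruvate dehydrogenase, rose in sorted cells by 0.86 in Leo1L and 1.17 in Paf1L (adjusted p = 0.0114 and 0.00113). Of 9 genes of mitochondrial biogenesis and quality control tested in bulk, 1, 0, 1, 0 and 0 rose and 1 fell in each mutant. The gene that fell was park, the fly parkin, by 0.47, 0.25, 0.46, 0.53 and 0.49 on the log2 scale, and of the 7 tested in sorted cells 0 passed by limma in either mutant (2 in Leo1L and 1 in Paf1L at an unadjusted p under 0.05). Of 12 glycolysis genes, 0 rose and 1, 2, 3, 1 and 4 fell in bulk mutants, 4 were lower in w1118 iso than in w1118, 1 fell in sorted Leo1L, and 1 rose and 1 fell in sorted Paf1L. Without Paf1L replicate 2 or control replicate 2, 0 glycolysis genes passed there, without Paf1L replicate 3 there were 3 that rose and 0 that fell, without control replicate 1 there was 1 that fell, and without control replicate 3 or Paf1L replicate 1 there was 1 that rose. Eno, the glycolytic enolase, fell in all 7 comparisons, by 0.25 to 0.38 on the log2 scale. Its call in sorted Paf1L was lost without control replicates 2 or 3 or any 1 Paf1L column.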

How the data were processed

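The authors deposited, per experiment, 1 table of normalized signal per gene under the name GeTMM, with 13659 genes. The submitters' processing notes name STAR, Salmon, DESeq2, edgeR 3.34.0 and the build dm6, with no settings. Most low values lay near whole multiples of 1 step per library (54.9% to 87.4% in bulk and 76.0% to 86.0% in sorted cells, within 0.1 of a whole number, up to 6 steps), as scaled reads not divided by length would. These shares were too low for a count model, and approximate depth is the total divided by the step.

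Within each table, genes with a mean signal of at least 1 (10925 bulk, 9495 sorted) entered a linear model on log2(signal + 1) over all libraries, made with limma 3.58.1 under R 4.3.3 (functions lmFit and eBayes, trend on). Fold changes on this scale understate those of low genes. P-values were adjusted by Benjamini-Hochberg over all genes tested. Bulk mutants were set against the mean of both control stocks. The fit was tested on simulated data. Positions and exon lengths came from Ensembl 115 (BDGP6.54) by symbol, found for 13330 genes, all 57 members among them.

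Members, marker and pathway lists were chosen with earlier results of these data known. Genes named were those that passed with the same sign in at least 3 bulk or both sorted mutant comparisons or passed at 2 fold, the extremes of control level per complex, those with the smallest p between control stocks, and those with a paralog symbol. Others, and the neighbours of ATPsyndelta, were chosen after their values were seen. Alternatives changed the pseudocount, the filter, the scaling, the control stock, covariates and the libraries used. Values of 1 member are not reported here, and it is left out of the figures.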

Additional observations from a re-analysis of the deposited data

How the results depend on the processing

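Counts of passing genes and their medians kept within 1.5 times, or within the spread between libraries, under 177 of 204 and 181 of 194 alternatives. The others follow. Fitting only the groups compared gave counts of 0 in Cdc73L, 2 in Ctr9L, 8 in Leo1L, 7 in the inverted cross, 9 in Paf1L and 0 between the stocks, with fewer libraries to estimate the spread. A required change of 2 fold gave 0, 0, 1, 1, 1 and 0 in that order, 1 in sorted Leo1L and 2 in sorted Paf1L. The accessory gland covariate gave 2 in Cdc73L. That score, the mean log2(signal + 1) of 12 markers, was 3.99 to 5.99 in bulk controls. It was 1.07 to 3.64 in Cdc73L and 1.20 to 6.68 in the other bulk mutants. Every Cdc73L library lay below every control, so the score and that genotype cannot be fully told apart. In Ctr9L quantile normalization gave 8, w1118 alone 10 and w1118 iso alone 10. Rescaling to 1 total gave 4 between the stocks. Rescaling moved the median log2 fold change to 0.0830 in Cdc73L, 0.103 in Leo1L, 0.134 in Paf1L and 0.0622 between the stocks. The muscle covariate moved it to 0.149 in Ctr9L, 0.238 in the inverted cross, 0.163 in Paf1L and 0.125 between the crosses. With w1118 alone it was 0.124 in Paf1L, and with w1118 iso alone -0.0216 in Ctr9L and 0.00359 in Paf1L. Only ND-13A changed sign while past the threshold, to -0.29 in the inverted cross and -0.30 in Paf1L with w1118 iso alone. For the other alternatives the cause was not tested.

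Leaving out 1 library gave counts of 3 to 8 in Cdc73L, 3 to 7 in Ctr9L, 11 to 19 in Leo1L, 9 to 16 in the inverted cross, 10 to 18 in Paf1L, 2 to 7 between the stocks, 6 to 10 in sorted Leo1L and 6 to 10 in sorted Paf1L. The median between the stocks was then 0.0600 to 0.136.

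In 0 of 21 bulk and 0 of 3 sorted pairs of groups were all correlations of same-numbered libraries over 0.1 (-0.527 to 0.557 and -0.111 to 0.276). This limit can miss an effect of replicate number on some genes. In sorted cells the score of 5 spermatogonia markers was highest in replicate 1 and lowest in replicate 2 in every group. By replicate it was 4.01, 3.03 and 3.95 in controls, 3.87, 3.07 and 3.29 in Leo1L and 4.35, 3.33 and 3.61 in Paf1L mutants. ND-15 was lowest in replicate 1 in every sorted group. With a replicate block the counts were 6, 5, 14, 14 and 15 in the bulk mutants, 8 between the stocks, and 12 and 10 in sorted Leo1L and Paf1L. Both stocks as 1 group, an alternative chosen after seeing the data, gave 6, 5, 13, 12 and 14. At this depth the low genes in sorted cells limit what can be called: COX7C and UQCR-14 had signals of 0.539 to 7.77, with 3 reads worth up to 0.382.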
